A study of Mus musculus with 32 samples.

Results

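The proteasome is the protease that destroys ubiquitin-tagged proteins. Of the 24197 genes measured in these mouse livers, 45 genes of its subunits, or of proteins that load, cap or inhibit it, are described here. They were taken by name, as every gene symbol starting with Psma, Psmb, Psmc, Psmd, Psme or Psmf and a digit, leaving out the recombination factor Psmc3ip, which only shares the prefix. The rule also leaves out subunits under other names, such as the receptor subunit Adrm1, which is read from a separate list below. By role they were 8 alpha subunits and 7 beta subunits of the 20S core, 4 beta subunits of its inducible or thymic forms, 6 ATPases and 11 non-ATPase subunits of the 19S cap, 3 chaperones of cap assembly, and 6 activators or inhibitors. The mice were Crl:CD1(ICR), an outbred stock, injected at 9 weeks of age and labelled as 10 weeks old. Each of the 32 mice received 2 subcutaneous doses of a locked nucleic acid (LNA) oligonucleotide, 25 mg/kg each, on consecutive days. Females received LNA-802, which is complementary to miR-802-5p, and males received LNA-1948, which is complementary to miR-1948-5p. Controls of both sexes received a scrambled LNA, so that no group was free of an LNA. Livers were taken on day 3 or day 6, giving 8 groups, with 5 mice in each anti-miR group and 3 in each scrambled group. The oligonucleotide and the sex therefore cannot be told apart between the 2 anti-miR arms.

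The 20S core is a barrel of stacked alpha and beta rings. Its proteolytic sites sit in 3 beta subunits: Psmb5 (chymotrypsin-like), Psmb6 (caspase-like) and Psmb7 (trypsin-like). The 19S cap binds ubiquitin chains, removes them, and threads the substrate into the barrel with a ring of ATPases, Psmc1 to Psmc6. In cells exposed to interferon, and constitutively in many immune cells, Psmb8, Psmb9 and Psmb10 are built in instead of Psmb5, Psmb6 and Psmb7. The resulting immunoproteasome is known for making peptides for MHC class I presentation, and it is low in resting hepatocytes. The transcription factor Nfe2l1 (NRF1) is known to raise the genes of the constitutive particle together when proteasome activity falls short.

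Expression is given as the authors' mean FPKM of each group (fragments per kilobase of transcript, scaled to the library), a unit that corrects for gene length; the values of single mice were not analysed here, so these means carry no error. Summed FPKM ran from 198940 to 206757 over the groups, and 9004 to 9327 genes reached 1 FPKM. The 10 hepatocyte markers, checked against the liver label, were all at 1 FPKM in every group and summed to 24264 to 33058 FPKM. Differences are the authors' edgeR ratios, printed as log2, and a gene is called changed where the authors' adjusted p was under 0.05. Medians and counts below cover genes at 1 FPKM in at least 1 of the groups compared, which 43 of the 45 proteasome genes passed in every comparison.

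The proteasome genes were a steadily expressed block. Of the 45, 43 reached 1 FPKM in all 8 groups, and together they made up 0.417% to 0.453% of all FPKM (846 to 921 FPKM). The 31 constitutive subunits of the core and the cap had levels from 11.5 to 42.1 FPKM as the mean of the 8 groups, with a median of 22.8, against 3.99 for all genes at 1 FPKM in a group. For each of them the highest group stood only 1.10 to 1.28 times above the lowest, with a median span of 1.16. The median span of all genes was 1.26, but these were not matched for level to the constitutive subunits. The order of the 43 genes by level was nearly the same in every group, with Spearman's rho across these genes from 0.965 to 0.995 over the 28 pairs of groups, a description of genes that share the same libraries.

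Within the 20S core, the beta subunits were the most abundant, with a median of 32.6 FPKM and a range of group-averaged levels from 20.95 for Psmb5 to 42.1 for Psmb7. The alpha subunits followed at a median of 25.9 FPKM, with Psma4 highest at 38.9. Psma8 is the alpha subunit known from male germ cells. It stood at 0.34 to 0.63 FPKM in the 8 groups, under the 1 FPKM minimum everywhere, and 5 germ cell markers (Tnp1, Tnp2, Prm1, Prm2 and Odf1) were listed at 0 in all groups. Psmb11, the beta subunit of the thymic proteasome, stood at 0.11 to 0.17 FPKM. The 19S ATPases had a median of 20.01 FPKM, from 16.7 for Psmc5 to 28.6 for Psmc1. The non-ATPase subunits of the cap had a median of 18.6 FPKM, from 11.5 for Psmd14, the deubiquitinase that cleaves chains off the substrate, to 28.3 for Psmd11, a scaffold subunit of the lid. The chaperones that help the ATPase ring assemble were far lower, at 7.27 FPKM for Psmd5, 2.72 for Psmd9 and 2.74 for Psmd10, which is also called gankyrin. Among activators and inhibitors, Psme1 (PA28 alpha) was highest at 25.9 FPKM and Psmf1 (PI31), an inhibitor of the core in vitro, lowest at 4.50. Psme2b, at 4.78 FPKM, is a close copy of Psme2 (PA28 beta, 18.6 FPKM), so the split of reads between the pair is uncertain. The induced subunits Psmb8, Psmb10 and Psmb9 averaged 8.08, 7.35 and 6.86 FPKM, and they had the widest spans of the 43, with the highest group 1.73, 1.83 and 2.26 times the lowest, against 1.30 for the next, Psme2b.

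**Figure D1:**
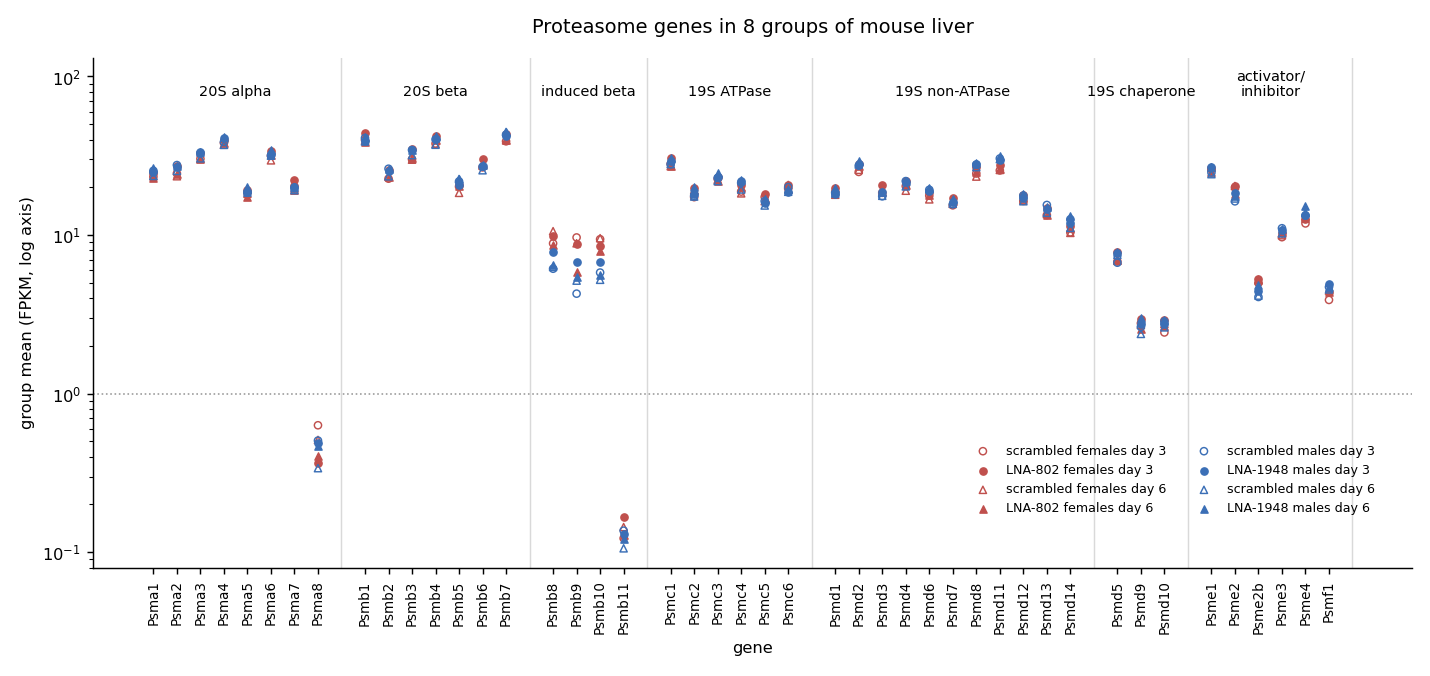
Authors' mean FPKM (log axis) of the 45 proteasome genes, grouped by subcomplex, with 1 symbol for each of the 8 groups (red, females; blue, males; open, scrambled LNA; filled, anti-miR LNA; circles, day 3; triangles, day 6); the dotted line marks 1 FPKM. Symbols of a constitutive subunit nearly coincide (spans of 1.10 to 1.28 times), and Psma8 and Psmb11 lie under 1 FPKM. Those of Psmb8, Psmb9 and Psmb10 spread more widely (1.73 to 2.26 times), and those of Psmb9 overlap between the sexes.

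The first question of the design was whether inhibiting a miRNA changed these genes within a sex and a day. No proteasome gene was called in any of the 4 anti-miR comparisons: 0 of 45 at an adjusted p under 0.05 by the authors' edgeR test in each. Few genes of any kind were called there, 0.0165% of all genes for LNA-802 on day 3, 0.339% on day 6, 0.0537% for LNA-1948 on day 3 and 0.124% on day 6. At an unadjusted p under 0.05, and among the 43 genes at 1 FPKM, the counts were 0, 1, 1 and 1, against 4.09%, 7.23%, 3.83% and 4.91% of all genes at that level. A count of 1 in 43 is no larger a share than that background.

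With LNA-802 in females on day 3, the members lay slightly above the scrambled group. The median log2 ratio was 0.10, with 39 of 43 above 0, against 0.01 and 53.4% of all genes. Of the 31 constitutive subunits 30 were above 0, and on the FPKM scale or after subtracting the median of all genes 31 and 29 were. In the authors' deposited table the 3 highest at 1 FPKM were Psmd10 at a log2 ratio of 0.22, Psmb3, a non-catalytic beta subunit, at 0.19, and the ATPase Psmc2 at 0.17 (edgeR adjusted p = 1 for each). The 3 lowest at 1 FPKM were Psmb10 at -0.19, Psmb9 at -0.17 and Psme1 at -0.04 in the authors' deposited table (adjusted p by edgeR = 1 for each). None of these values passed the edgeR test against the spread between mice. Psma8, below the minimum, stood at 0.63 FPKM in the scrambled group and 0.37 with LNA-802, with an unadjusted p of 0.0409 in the authors' deposited table.

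On day 6 of LNA-802 the median was 0.04, with 29 of 43 above 0, against 0.01 and 52.4% of all genes. On the FPKM scale the median was 0.0159, with 26 of 43 above 0. The induced subunits had the 3 lowest ratios at 1 FPKM. In the authors' deposited table Psmb9 had a log2 ratio of -0.59 (unadjusted p = 0.00987, edgeR adjusted p = 0.594), from 8.88 to 5.84 FPKM. Psmb8 stood at -0.28 and Psmb10 at -0.26 in the authors' deposited table, each with an edgeR adjusted p of 1. At the other end were Psmb5 at 0.16, the ATPase Psmc4 at 0.15 and Psmd4, a ubiquitin receptor of the cap, at 0.13 in the authors' deposited table (adjusted p by edgeR = 1 for each).

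With LNA-1948 in males on day 3 the constitutive subunits centred on the scrambled level, with a median log2 ratio of -0.01 and 14 of 31 above 0, while all 3 induced subunits were above 0. Psmb9 had 0.66 in the authors' deposited table (unadjusted p = 0.0279, adjusted p by edgeR = 1), from 4.27 to 6.80 FPKM. Psmb8 stood at 0.35 and Psmb10 at 0.22 in the authors' deposited table (adjusted p by edgeR = 1 for both). The lowest were Psmc6, an ATPase, at -0.11, Psmd13, a lid subunit, at -0.08 and Psmd14 at -0.07 in the authors' deposited table (adjusted p by edgeR = 1 for each).

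On day 6 of LNA-1948 the members again lay slightly above the scrambled group. The median was 0.05, with 39 of 43 above 0, against 0.01 and 52.4% of all genes. On the FPKM scale 43 of 43 were above 0 and the median was 0.10, with the median of all genes at 0.05; after subtracting the median of all genes 35 of 43 were. Psmd9 had the highest ratio at 1 FPKM, 0.27 in the authors' deposited table (unadjusted p = 0.0477, adjusted p by edgeR = 1), followed by Psmd14 at 0.19 and Psme2b at 0.15. The lowest in the authors' deposited table were Psmb7 and Psmb5, at -0.05 each, and Psmd6, a lid subunit, at -0.03. The induced subunits lay between -0.02 and 0.05, so the day 3 values of Psmb8, Psmb9 and Psmb10 in males had no counterpart of that size on day 6; the difference between the days was not tested.

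**Figure D2:**
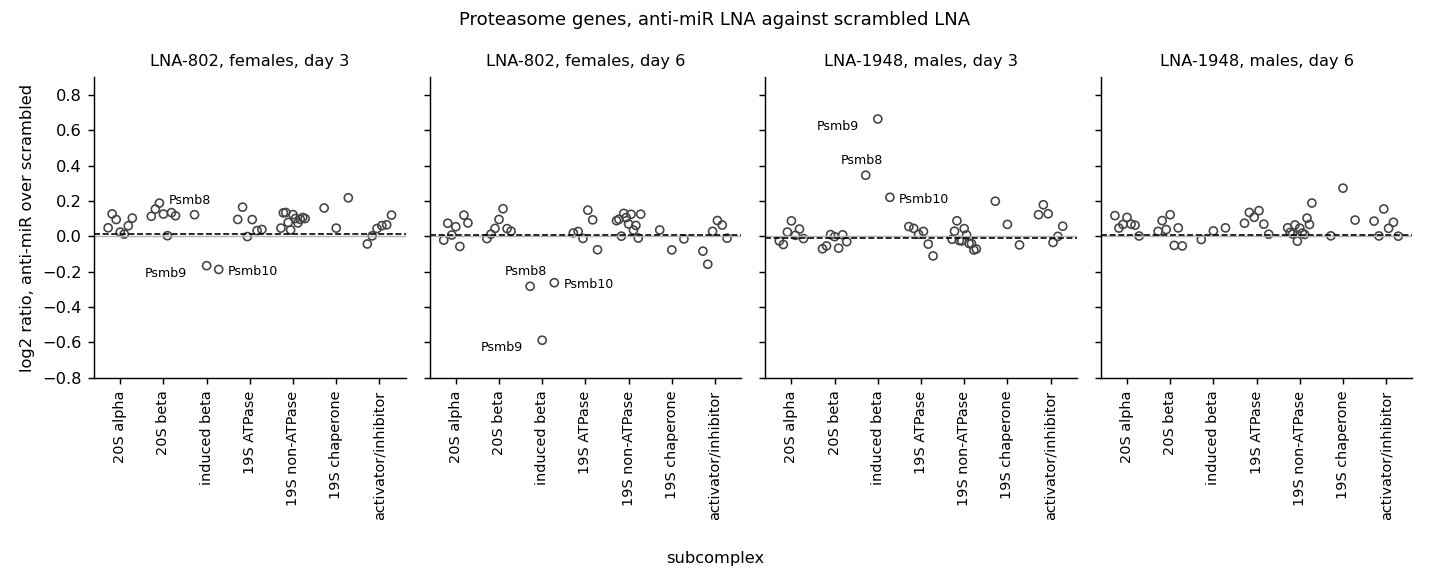
Log2 ratio of anti-miR over scrambled LNA in the authors' table for the 43 proteasome genes at 1 FPKM, 1 circle per gene, by subcomplex and comparison (5 against 3 mice each); the dashed line is the median of all genes and open circles mark genes that were not called. Most genes lie within 0.2 of 0, and the points farthest from it are Psmb9 at -0.59 (LNA-802, day 6) and at 0.66 (LNA-1948, day 3).

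The second question of the design concerned sex in the scrambled groups, and here the induced subunits were lower in males. The pooled comparison of both days (6 against 6 mice) called 4 of 45 proteasome genes, where 7.81% of all genes were called, 4.62% lower and 3.19% higher in males. Psmb10 was lower in males at a log2 ratio of -0.73 (edgeR adjusted p = 0.000125), Psmb8 at -0.59 (adjusted p = 0.00177) and Psmb9 at -0.92 (adjusted p = 0.0202) in the authors' deposited table. Psmd11 was higher in males at 0.29 (edgeR adjusted p = 0.0124) in the authors' deposited table. As a share, 4 of 45 is close to the 7.81% of all genes called in this comparison. The called genes were the 3 induced subunits that reached 1 FPKM and 1 lid subunit. In these libraries all 4 kept their direction on the FPKM scale, at -0.69, -0.57, -0.85 and 0.23.

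The pooled comparison contains the mice of both single-day comparisons, so they are not independent of it. On day 6 alone, Psmb10 (log2 ratio -0.77, edgeR adjusted p = 0.000389) and Psmb8 (-0.66, adjusted p = 0.00411) were called lower in males in the authors' deposited table, where 4.43% of all genes were called, 2.52% lower. Psmb9 stood at -0.69 with an edgeR adjusted p of 0.123 in the authors' deposited table. On day 3 alone 0 of 45 were called, where 3.36% of all genes were, and Psmb8, Psmb9 and Psmb10 were the 3 members with an unadjusted p under 0.05, where 16.8% of genes at 1 FPKM had one. Their day 3 log2 ratios in the authors' deposited table were -0.51, -1.16 and -0.68 (edgeR adjusted p = 0.364, 0.168 and 0.146). The direction was the same on both days for all 3 genes, with the ratio of Psmb9 farther from 0 on day 3 and those of Psmb8 and Psmb10 farther from 0 on day 6.

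Psmd11 stood at 25.6 FPKM in scrambled females and 30.4 in scrambled males on day 3, and at 25.7 and 30.1 on day 6. With the anti-miR LNAs it stood at 27.6 and 26.05 FPKM in females and at 29.6 and 31.6 in males on days 3 and 6. The 4 male groups were thus all above the 4 female groups, and how many of all genes separate in this way was not counted. Psmd8, another lid subunit, was the uncalled member with the smallest p, at 0.25 on the log2 scale of the authors' deposited table (adjusted p by edgeR = 0.0524).

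The constitutive subunits, Psmd11 among them, leaned towards males by small amounts. In the pooled comparison 28 of 31 had a log2 ratio above 0, with a median of 0.10 against 0.03 for all genes, and 57.6% of all genes were above 0. On the FPKM scale 24 of 31 were above 0 with a median of 0.05, and on day 6 the change of scale took the count from 28 to 21 and the median from 0.12 to 0.02, while the median of all genes moved from 0.02 to -0.05. At an unadjusted p under 0.05 there were 12 members higher and 4 lower in males among 43, where 27.1% of all genes passed in either direction, 14.4% higher and 12.7% lower. The higher ones included the catalytic Psmb5 and Psmb7, at 0.25 and 0.21 in the authors' deposited table (adjusted p by edgeR = 0.109 and 0.14). Psmd14 was at 0.24 and Psmd6 at 0.22 in the authors' deposited table (adjusted p by edgeR = 0.17 and 0.16). Psmb6 stood at 0.01 in the authors' deposited table. The interferon-inducible PA28 pair had ratios below 0 without a call, Psme2 at -0.22 (edgeR adjusted p = 0.301) and Psme1 at -0.06 in the authors' deposited table.

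**Figure D3:**
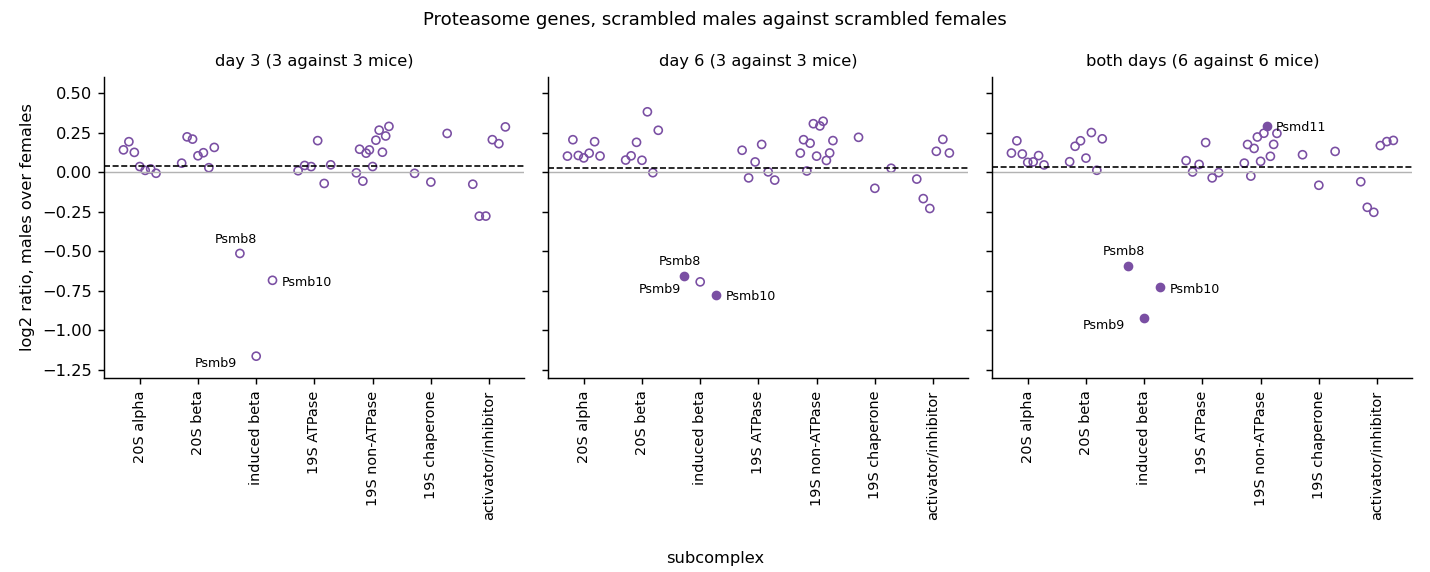
Log2 ratio of scrambled males over scrambled females in the authors' table for the 43 proteasome genes at 1 FPKM, by subcomplex, on day 3, on day 6 and with both days pooled; filled circles mark called genes and the dashed line is the median of all genes. Psmb8, Psmb9 and Psmb10 lie between -0.51 and -1.16 in all panels, and the other members lie between -0.28 and 0.38.

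Setting each induced subunit beside the one it replaces gives the composition of the catalytic genes in every group. Psmb9 stood at 9.66 and 8.88 FPKM in scrambled females on days 3 and 6, and at 8.84 and 5.84 with LNA-802. In males it stood at 4.27 and 5.16 FPKM with scrambled LNA, and at 6.80 and 5.46 with LNA-1948. Both scrambled female means were above both scrambled male means, and how many of all genes separate in this way was not counted. The LNA-802 group of day 6 lay among the male values. Psmb6, its constitutive counterpart, ran from 25.6 to 30.1 FPKM over the 8 groups, with no separation by sex.

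Psmb10 stood at 9.41 and 9.56 FPKM in scrambled females, 8.48 and 7.88 with LNA-802, 5.80 and 5.22 in scrambled males and 6.78 and 5.62 with LNA-1948, day 3 before day 6 in each pair. All 4 female means were above all 4 male means, again without a count of all genes that separate so. Its counterpart Psmb7 ran from 39.0 to 44.7 FPKM.

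Psmb8 stood at 8.86 and 10.6 FPKM in scrambled females, 9.90 and 8.61 with LNA-802, 6.13 and 6.29 in scrambled males and 7.83 and 6.45 with LNA-1948, in the same order. Here too all 4 female means exceeded all 4 male means. The share of all genes with such a separation was not counted, and 7.81% of all genes were called in the pooled sex comparison. Its counterpart Psmb5 ran from 18.5 FPKM in scrambled females on day 6 to 22.6 in LNA-1948 males on day 6. Its lowest male mean, 20.82 FPKM with LNA-1948 on day 3, nearly equalled its highest female mean, 20.80 FPKM with LNA-802 on day 3.

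As ratios of FPKM, the sum of the 3 induced subunits over the sum of the 3 constitutive ones was 0.325 and 0.339 in scrambled females on days 3 and 6, and 0.177 and 0.180 in scrambled males. With the anti-miR LNAs it was 0.289 and 0.253 in females and 0.238 and 0.185 in males. Constitutive catalytic transcripts thus exceeded induced ones in every group. The pair with the largest induced share was Psmb8 over Psmb5, at 0.424 to 0.573 in females and 0.279 to 0.376 in males. Psmb10 over Psmb7 was lowest, at 0.196 to 0.241 in females and 0.117 to 0.161 in males. Psmb9 over Psmb6 overlapped between the sexes, at 0.209 to 0.361 in females and 0.158 to 0.250 in males.

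**Figure D4:**
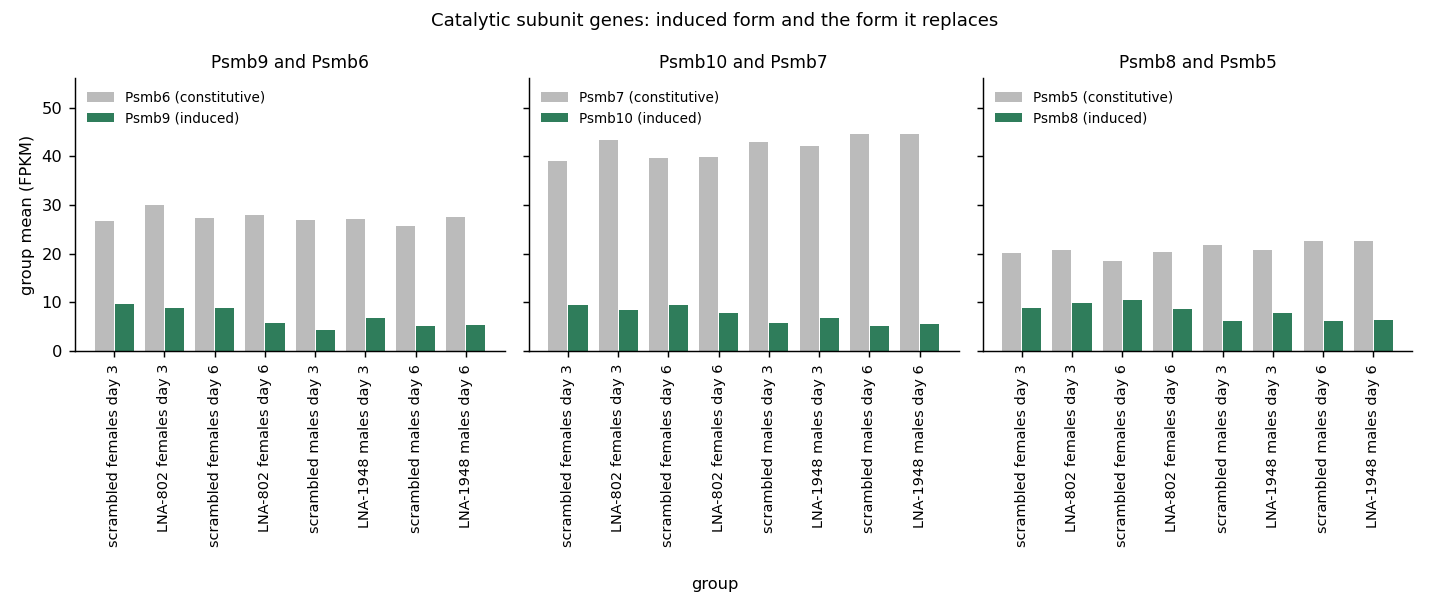
Authors' mean FPKM of each induced catalytic gene (green) and the constitutive gene it replaces (grey) in the 8 groups, females left and males right; bars start at 0 and carry no error because only group means are given. The grey bars of a gene differ by at most 1.23 times across groups, and the green bars stand at 8.86 to 10.6 FPKM in scrambled females and at 4.27 to 6.29 FPKM in scrambled males, with the anti-miR groups at 5.46 to 9.90 FPKM.

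Markers of Kupffer cells, the resident macrophages of the liver, moved with these 3 genes in the sex comparisons and in 2 of the 4 anti-miR comparisons. Their 12 markers in the table summed to 94.8 and 98.4 FPKM in scrambled females on days 3 and 6, and to 54.9 and 57.2 FPKM in scrambled males. With the anti-miR LNAs they summed to 87.5 and 78.1 FPKM in females, and to 80.1 and 55.6 FPKM in males. In the pooled sex comparison 12 of the 12 were called lower in males in the authors' deposited table, where 4.62% of all genes were. With LNA-802 on day 6, 11 of 11 at 1 FPKM had log2 ratios below 0, where 52.4% of all genes were above 0. With LNA-1948 on day 3, 11 of 11 were above 0, where 47.3% of all genes were. In either, 0 of 12 were called, where 0.339% and 0.0537% of all genes were. At an unadjusted edgeR p under 0.05 there were 6 and 10 of the 11, against 7.23% and 3.83% of all genes at 1 FPKM. In the other 2 anti-miR comparisons there were 1 of 12 (LNA-802, day 3) and 0 of 11 (LNA-1948, day 6), against 4.09% and 4.91%. There the markers and the 3 genes did not all go the same way. With LNA-802 on day 3, 12 of 12 markers were below 0 while Psmb8 stood at 0.12 in the authors' deposited table. With LNA-1948 on day 6, 8 of 11 were below 0 while Psmb9 and Psmb10 stood at 0.03 and 0.05 in the authors' deposited table. Endothelial markers summed to 41.5 to 48.8 FPKM in females and 34.2 to 39.7 in males. No marker of T and NK cells, B cells or dendritic cells reached 1 FPKM in any group. Below that level, 2 of 10 T and NK cell markers and 2 of 5 dendritic cell markers were called lower in males in the pooled sex comparison. Of the 4 B cell markers 0 were called there. The part of Kupffer cells in the values of Psmb8, Psmb9 and Psmb10 was not tested, and in whole liver fewer cells of a type and less RNA per cell cannot be told apart.

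Psmb8 and Psmb9 lie together in the MHC region, interleaved with the peptide transporter genes. In mm9, the build of the deposited table, Psmb9 spans chr17:34319043-34324275 and Psmb8 chr17:34335139-34338399. Tap1 begins 224 bases after Psmb9 and ends 968 bases before Psmb8, and Tap2 starts 3023 bases after Psmb8. Psmb10 is on chromosome 8, at chr8:108459627-108462292. The promoter windows of the 3 induced genes and of Psmb5 and Psmb6 are shown because these are the called induced genes and constitutive counterparts that were not called; they run 5′ to 3′ on the gene's strand, from 250 bases before to 50 after the start, from RefSeq on GRCm38.p6, whose coordinates differ from mm9. They lie at chr17:34187281-34187580 (minus strand), chr17:34197945-34198244 (plus), chr8:105938343-105938642 (minus), chr11:70525107-70525406 (plus) and chr14:54617946-54618245 (minus). Capitals mark a match to TTCNNNGAA, the form of the interferon gamma activated site, or to TGACNNNGC, the antioxidant response element form read by Nfe2l1 and Nfe2l2.
Psmb9: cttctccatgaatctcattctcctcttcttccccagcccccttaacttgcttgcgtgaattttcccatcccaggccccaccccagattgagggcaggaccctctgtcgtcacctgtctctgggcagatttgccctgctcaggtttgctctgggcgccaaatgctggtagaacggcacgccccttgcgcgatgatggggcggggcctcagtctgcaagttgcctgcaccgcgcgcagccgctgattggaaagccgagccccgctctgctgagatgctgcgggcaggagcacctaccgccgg
Psmb8: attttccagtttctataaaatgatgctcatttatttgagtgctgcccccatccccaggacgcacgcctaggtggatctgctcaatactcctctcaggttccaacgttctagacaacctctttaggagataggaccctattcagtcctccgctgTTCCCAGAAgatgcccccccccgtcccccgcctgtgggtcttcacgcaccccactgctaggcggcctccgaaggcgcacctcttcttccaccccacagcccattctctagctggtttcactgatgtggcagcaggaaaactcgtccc
Psmb10: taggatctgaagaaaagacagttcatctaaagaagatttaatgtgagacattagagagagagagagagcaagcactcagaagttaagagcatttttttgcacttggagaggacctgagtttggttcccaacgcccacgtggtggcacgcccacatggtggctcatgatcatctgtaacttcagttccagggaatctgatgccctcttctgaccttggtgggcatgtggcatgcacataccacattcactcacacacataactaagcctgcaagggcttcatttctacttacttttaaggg
Psmb6: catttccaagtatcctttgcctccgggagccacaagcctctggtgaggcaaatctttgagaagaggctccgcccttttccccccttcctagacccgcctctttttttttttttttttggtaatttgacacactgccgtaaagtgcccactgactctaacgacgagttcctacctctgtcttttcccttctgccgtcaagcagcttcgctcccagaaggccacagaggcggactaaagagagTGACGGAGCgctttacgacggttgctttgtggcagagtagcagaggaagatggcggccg
Psmb5: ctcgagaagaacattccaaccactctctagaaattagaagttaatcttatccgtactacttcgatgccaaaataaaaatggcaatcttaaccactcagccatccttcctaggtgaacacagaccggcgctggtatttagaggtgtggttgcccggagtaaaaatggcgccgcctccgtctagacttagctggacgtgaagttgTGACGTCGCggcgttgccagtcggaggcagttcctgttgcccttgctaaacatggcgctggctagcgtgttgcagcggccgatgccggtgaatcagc

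Of the 45 members, 38 have a window in that table, and both strands were searched for 4 motifs that do not overlap in the 5 windows shown. TTCNNNGAA was found in 2 of the 38 (5.26%), one of them Psmb8 at bases -97 to -89 from its start, against 9.55% of 27025 genes. A form of the interferon-stimulated response element (GAAA, any 2 bases, GAAA) was in 4 of 38 (10.5%), against 3.99%, and in 0 of the 3 induced genes. TGACNNNGC was in 6 of 38 (15.8%), against 14% of all genes, among them Psmb6 at bases -9 to -1 and Psmb5 at bases -47 to -39. CCAAT was in 14 of 38 (36.8%), against 41.1%. A match is a description of letters in these windows.

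Between day 3 and day 6 the members were compared on log2(FPKM + 1) of the group means, as values without a test, since the day is also the library series and cannot be told apart from it. In LNA-802 females 40 of 43 were lower on day 6, including all 31 constitutive subunits, with a median of -0.09, against -0.01 for all genes. In scrambled females the median was 0.01, with 22 of 43 above 0, and in scrambled males it was -0.06, with 14 of 43 above 0, against medians of 0.03 and -0.04 for all genes. In LNA-1948 males 34 of 43 were higher on day 6, with a median of 0.06, against 0.02 for all genes. The induced subunits ran the other way in that arm, all 3 lower on day 6 with a median of -0.25, while the Kupffer cell markers went from 80.1 to 55.6 FPKM. These day-to-day values were all small for the constitutive genes, from -0.20 to 0.14 on the log2 scale over the 4 treatments.

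Genes that build, feed or regulate the proteasome were read from 6 lists. None of their genes was called in any anti-miR comparison, where only 0.0165% to 0.339% of all genes were. Among the 6 assembly factors of the 20S core, Pomp, which places the beta subunits, was abundant at 43.3 to 48.5 FPKM. Psmg2, an assembly chaperone of the alpha ring, was higher in males in the pooled sex comparison at a log2 ratio of 0.40 (edgeR adjusted p = 0.00475) in the authors' deposited table. Akirin2, which mediates import of proteasomes into the nucleus, was also higher in males at 0.31 (edgeR adjusted p = 0.0251) in the authors' deposited table. The other 4 factors were not called, and 3.19% of all genes were called higher in males in the pooled comparison.

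Of the 9 factors in the table that associate with the 26S particle, 8 reached 1 FPKM and none was called in any of the 7 comparisons. Of all genes, 0.0165% to 7.81% were called in these comparisons. The receptor subunit Adrm1 stood at 17.5 to 21.1 FPKM. Of the 11 shuttle and p97 factors, which bring ubiquitylated proteins to the proteasome, none was called either, and Ufd1l had the smallest unadjusted p of the anti-miR comparisons at 0.0768 (LNA-802, day 6, log2 ratio 0.23) in the authors' deposited table.

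Among 6 ubiquitin and E1 genes, the polyubiquitin gene Ubb differed most. It stood at 75.6 FPKM in scrambled females and 48.6 in scrambled males on day 3, a ratio of -0.62 on the log2 scale of the authors' deposited table (adjusted p by edgeR = 0.0101). On day 6 it stood at 60.0 and 57.9 FPKM and was not called. LNA-1948 males on day 3 had 65.5 FPKM, a log2 ratio of 0.43 to the same scrambled males in the authors' deposited table (unadjusted p = 0.00124, adjusted p by edgeR = 0.462). Both comparisons use the scrambled males of day 3, the lowest of the 8 groups.

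Of the 8 NRF1 and NRF2 regulators, Nfe2l1 stood at 11.2 to 13.9 FPKM and Nfe2l2 at 11.4 to 14.02, and neither was called in any comparison. Bach1, a repressor of antioxidant response genes, was higher in males on day 6 at a log2 ratio of 0.50 (edgeR adjusted p = 0.0134) in the authors' deposited table. On day 3 it stood at 3.09 FPKM in scrambled females and 3.17 in scrambled males. It was not called on day 3 or with both days pooled. Maff, a small Maf partner at 0.19 to 0.52 FPKM, had the smallest unadjusted p of this list in the anti-miR comparisons, 0.00319 with LNA-802 on day 3 (log2 ratio -1.07, edgeR adjusted p = 0.786) in the authors' deposited table, and it lies below the 1 FPKM minimum.

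The MHC class I list holds 12 genes that work downstream of the immunoproteasome or control it. In the pooled sex comparison 5 of the 12 were called lower in males and 0 higher, where 4.62% of all genes were called lower and 3.19% higher. Called lower were, among others, Tapbp, which bridges transporter and MHC (log2 ratio -0.55), the transporter subunit Tap2 (-0.38), and the regulators Nlrc5 (-0.96) and Irf1 (-0.999) in the authors' deposited table. Their edgeR adjusted p-values in the authors' deposited table were 3.41e-06, 0.0299, 0.000627 and 0.00472 in that order. The scrambled females of day 3 were the highest group for Irf1, at 8.33 FPKM against 3.22 to 5.36 in the other 7. The same group was the highest for Tap1, at 6.25 FPKM against 2.54 to 3.62. Psmb8, Psmb9 and Psmb10 differed from Irf1 and Tap1 in staying near their day 3 level in scrambled females on day 6. Their log2 ratios of day 6 over day 3 were 0.23, -0.11 and 0.02. This was not particular to them. In scrambled females Tapbp stood at 16.5 and 16.1 FPKM on days 3 and 6 and Tap2 at 8.99 and 8.38, while Nlrc5 went from 2.32 to 1.64. On day 6 Tapbp (-0.51) was also called lower in males in the authors' deposited table (adjusted p by edgeR = 0.0245).

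In the anti-miR comparisons, H2-K1 had the smallest unadjusted p of that list, 0.000537 for LNA-1948 on day 3 (log2 ratio 0.92, edgeR adjusted p = 0.295) in the authors' deposited table. Nlrc5 stood at -0.91 with LNA-802 on day 3 (edgeR adjusted p = 0.546) in the authors' deposited table, where the scrambled group, at 2.32 FPKM, was the highest of the 8. H2-D1 stood at 0.57 in that comparison in the authors' deposited table (adjusted p by edgeR = 1). H2-K1 and H2-D1 are closely similar members of a gene family, so the assignment of reads between them is uncertain.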

How the data were processed

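Poly(A) RNA of 32 mouse livers was sequenced with a strand-specific kit, per the labels' protocols. The authors aligned reads to mm9 with TopHat2, counted them with featureCounts and compared groups with edgeR, per the submitters' processing notes; versions and depth per sample are not given in the sources used here. The deposited table gives, per the file headers, for each of 7 comparisons a ratio, the mean FPKM of both groups, a p-value and an adjusted p-value, and holds no values of single mice. Its adjusted p-values equalled a Benjamini-Hochberg adjustment of its p-values over all 24197 genes.

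Ratios were converted to log2. Members were found by symbol, and medians cover genes at 1 FPKM in at least 1 group of a comparison. Day 6 over day 3 used log2(FPKM + 1) of the authors' means. Group means repeated beside the sex comparisons were not used; levels of both days pooled are the mean of the authors' means of the days. The code was tested on simulated data (Python 3.11.15, pandas 2.3.3, numpy 2.4.6, scipy 1.17.1, matplotlib 3.10.9). Members, lists and tests were chosen with earlier results of these data known. Genes named were those called, the catalytic subunits, the extremes of level per subcomplex, the 3 highest and 3 lowest ratios of each anti-miR comparison, members under 1 FPKM, and up to 4 genes per list by smallest p, with 1 gene of the MHC class I list not reported here. Of 13 symbols listed for Kupffer cell markers 12 were matched, of 13 for factors associated with the 26S particle 9, and of 12 for shuttle and p97 factors 11. The lists hold alternative symbols of the same gene, such as Emr1 and Adgre1, so an unmatched symbol need not be an absent gene. Several scrambled females of day 6 carry the same number in their titles, so replicates were named in accession order. Alternatives were other p thresholds, FPKM ratios with 2 pseudocounts, a minimum of 10 FPKM or none, and centring on the median of all genes. Promoter windows came from RefSeq (GRCm38.p6). P-values are those of the authors' edgeR test, which sets the difference between groups against the spread between mice as their model estimated it.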

Additional observations from a re-analysis of the deposited data

How the results depend on the processing

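The FPKM means carry no error and the depth per mouse is unknown, so no interval could be set on a level. No paired analysis was possible because the deposited table holds group means and no values of single mice; for the same reason leaving out single mice was not run. At an unadjusted p under 0.05 and with no minimum level, so over 45 members rather than 43, the number passing was 1 in each of the 4 anti-miR comparisons, 7 for sex on day 6, 3 for sex on day 3 and 16 for both days pooled; for LNA-802 on day 3 it was Psma8, which lies under 1 FPKM. From FPKM ratios with a pseudocount of 1 and of 0.01, the member median was 0.0159 and 0.0169 for LNA-802 on day 6, 0.1003 and 0.106 for LNA-1948 on day 6, 0.00907 and 0.0095 for sex on day 6, and 0.0433 and 0.0459 for both days pooled. With a minimum of 10 FPKM the median was -0.00192 for LNA-1948 on day 3 and 0.120 for sex on day 3. After subtracting the median of all genes it was 0.0159 for LNA-1948 on day 3, 0.0196 for sex on day 3 and 0.0663 for both days pooled, and for day 6 over day 3 it was -0.021 in scrambled females and -0.0198 in scrambled males. The cause of these shifts was not tested. The other 70 alternative values for these counts, medians and ratios kept their direction and moved by less than 1.5 times, and no single gene called in the authors' table reversed direction. Of the alternative values of single genes, 292, all of them FPKM ratios, moved by over 1.5 times or, for genes not called, changed sign, and 638 did not. Psmd8 passed the threshold for both days pooled, at a log2 ratio of 0.25, when p-values were adjusted over genes at 1 FPKM.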
